A study of Rattus norvegicus with 6 samples.

Results

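Transcripts of the mitochondrial respiratory chain and of the ATP synthase were examined in cultured rat hippocampal neurons with raised or lowered cyclin Y (CCNY). Genes were taken by their symbols: those starting with Nduf (complex I), Uqcr or named Cyc1 (complex III), Cox4 to Cox8 (complex IV) and Atp5 (ATP synthase). The rule found 84 of 17066 genes in the table, 40 of complex I, 9 of complex III, 18 of complex IV and 17 of the ATP synthase. Ndufa4 and its paralog Ndufa4l2 carry complex I names but were counted with complex IV, where the NDUFA4 protein is now placed. Atp5sl, now named Dmac2, was kept with the ATP synthase by its older symbol. Complex II was left out.

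Primary neurons came from Sprague-Dawley embryos at embryonic day 18 and received lentivirus on day 5 or 6 in vitro. The virus carried EGFP alone (EGFP, the control), wild-type CCNY joined with EGFP (CCNY-WT, overexpression) or an shRNA against CCNY with EGFP (CCNY-shRNA, knockdown), and RNA was taken on day 14. All 3 conditions thus carried virus and EGFP, and the control is not described as carrying a non-targeting shRNA. Each condition had 2 libraries, and whether these came from separate cultures is not given, so p-values measure the spread between these libraries, which may be technical. The promoters of the viral constructs and the share of infected cells are not given in the sources used here.

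Levels are FPKM, fragments per kilobase of transcript scaled to the mapped fragments of the library, which set genes of different length on 1 scale. For short transcripts FPKM depends on the effective length that Cufflinks used. Ccny itself was at 43.1 and 42.3 FPKM (EGFP), 108 and 109 (CCNY-WT) and 5.98 and 6.19 (CCNY-shRNA) (replicates 1 and 2), and every library followed its label. Summed FPKM of 7 neuronal markers lay between 3058 and 3206 in all libraries, and that of 4 astrocyte markers between 230 and 295, with the lowest value in CCNY-shRNA replicate 1. All 5 microglial markers stayed under 1 FPKM. The read depth is unknown. Relative to EGFP replicate 1 it was estimated from the smallest FPKM steps as 1.09 for the other EGFP library, 1.33 and 0.933 for the overexpression libraries and 0.818 and 1.15 for the knockdown libraries.

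Complexes I, III and IV pass electrons from NADH to oxygen within the inner mitochondrial membrane and pump protons across it, and the ATP synthase uses the returning protons to make ATP. The 7 core genes of complex I that are measured here encode the peripheral arm, which binds NADH and carries the flavin and iron-sulfur clusters. The remaining core subunits come from mitochondrial DNA. Genes of mitochondrial DNA were searched for by symbol, and 0 were found. Accessory subunits surround the core and are needed for its assembly and stability. Neurons depend on this machinery for the ATP that ion pumps and synapses consume.

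Promoters of respiratory genes are known for sites of NRF1, of ETS factors such as GABP, and of YY1. Reference promoters, from 250 bases before to 50 after the start site, were matched for 70 of the 84 genes in RefSeq (build GRCr8). The letters GCGCANGCG (NRF1) stood in 19 of the 70 windows, 27.1%, against 8.05% of all 19005 protein-coding genes. For CCGGAAG (ETS) the shares were 25.7% and 11.2%, and for AANATGGCG (YY1) they were 20% and 4%. For GGGCGG (SP1) they were 42.9% and 43.1%. Both strands were searched, matches of different motifs may overlap, and a match describes the letters only. At least 1 of the first 3 motifs stood in 42 of the 70 windows, 60%, against 20.1% of all genes.

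The windows of Ndufs4, Ndufs5 and Ndufs6 are printed because these complex I genes gave the smallest p-values of the group in the comparisons below. Capitals mark matches to the NRF1, ETS or YY1 letters on either strand, and each window is read 5′ to 3′ along the gene. Ndufs4 is at chr2:47794865-47795164 on the minus strand, Ndufs5 at chr5:141264353-141264652 on the minus strand and Ndufs6 at chr1:31797150-31797449 on the plus strand.
Ndufs4: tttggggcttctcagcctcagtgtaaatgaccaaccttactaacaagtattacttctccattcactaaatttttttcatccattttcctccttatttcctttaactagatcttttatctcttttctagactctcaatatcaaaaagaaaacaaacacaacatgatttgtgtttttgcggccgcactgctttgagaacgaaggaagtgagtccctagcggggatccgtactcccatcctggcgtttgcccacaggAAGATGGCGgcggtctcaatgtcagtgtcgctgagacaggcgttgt
Ndufs5: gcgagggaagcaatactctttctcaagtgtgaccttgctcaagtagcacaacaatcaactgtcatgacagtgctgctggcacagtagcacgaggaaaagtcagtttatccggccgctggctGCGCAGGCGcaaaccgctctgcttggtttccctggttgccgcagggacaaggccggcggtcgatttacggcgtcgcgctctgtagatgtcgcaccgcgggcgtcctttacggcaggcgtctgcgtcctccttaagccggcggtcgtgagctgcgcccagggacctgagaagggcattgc
Ndufs6: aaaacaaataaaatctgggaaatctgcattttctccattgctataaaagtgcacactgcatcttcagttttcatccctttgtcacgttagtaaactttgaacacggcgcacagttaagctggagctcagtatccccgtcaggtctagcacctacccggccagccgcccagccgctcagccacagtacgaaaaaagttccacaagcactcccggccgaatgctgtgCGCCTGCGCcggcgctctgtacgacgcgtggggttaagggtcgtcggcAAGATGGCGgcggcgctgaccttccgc
Ndufs4 held a YY1 match that began 4 bases after the start site and none of the other 2 motifs. Ndufs5 held an NRF1 match 129 bases before the start, and Ndufs6 an NRF1 match 25 bases before and a YY1 match 23 bases after it.

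By FPKM, the group was among the most abundant in the EGFP neurons. Of the 84 genes, 58 lay above 100 FPKM in every library. In the ranking of all genes by mean FPKM in EGFP, 8 of the 50 highest and 12 of the 100 highest were members. Uqcr10, a small subunit of complex III, ranked first with 4232 ± 5.5 FPKM (SD, n = 2). Effective lengths were not examined here, so this rank holds for FPKM only. The members' FPKM summed to 27178 and 27059 in EGFP, which was 4.99% and 4.98% of the total of each library.

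**Figure D1:**
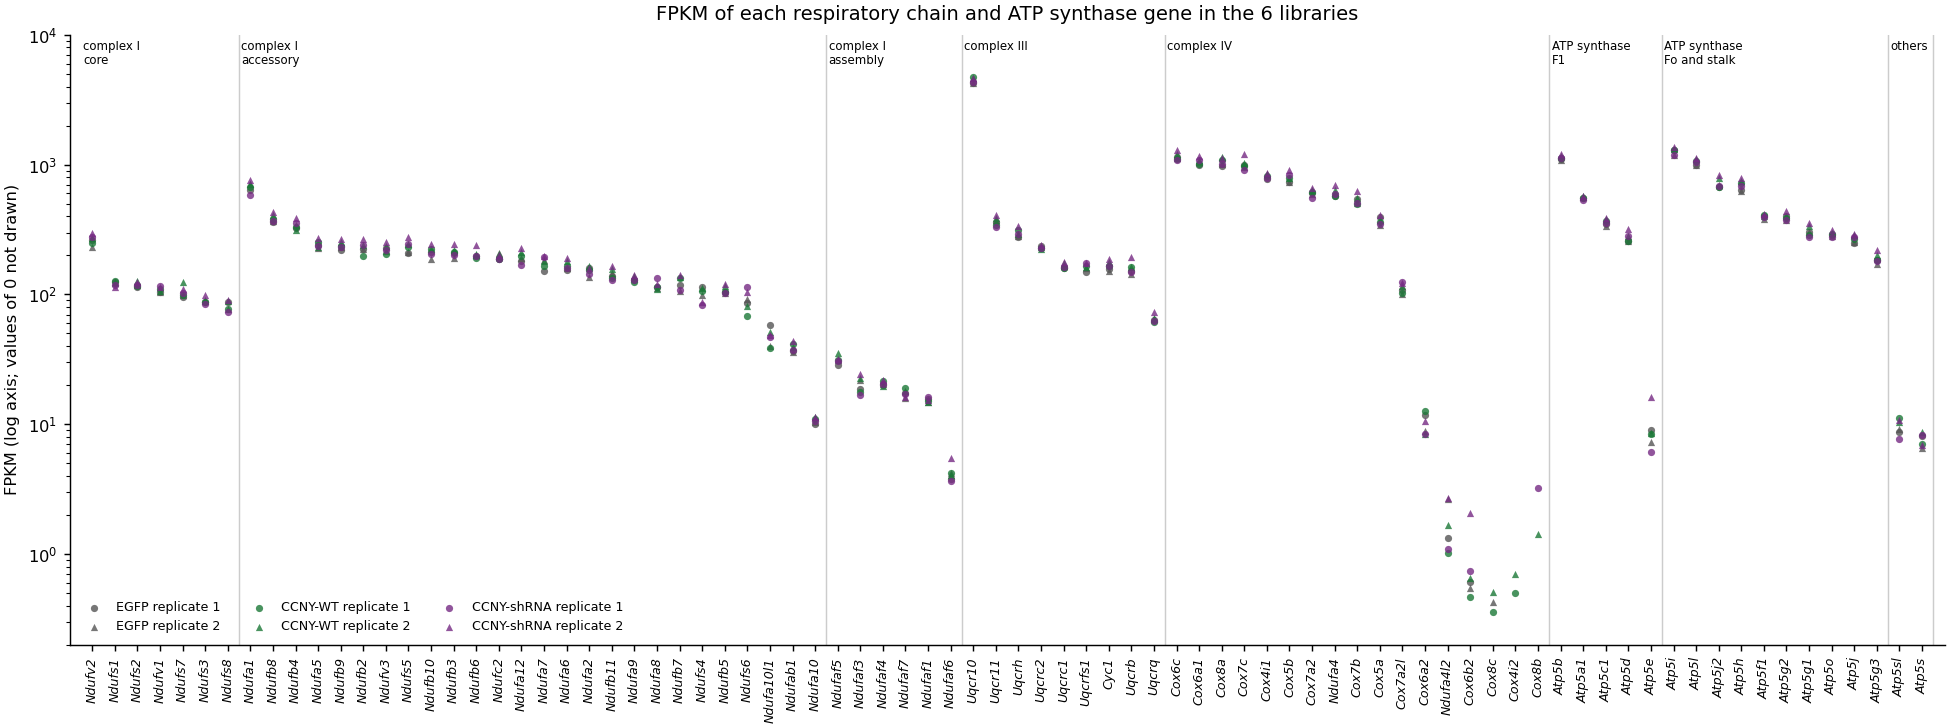
FPKM (log axis) of the genes of complexes I, III and IV and of the ATP synthase in each of the 6 libraries, ordered within each role by the mean in EGFP. Colours stand for the conditions, circles for replicate 1 and triangles for replicate 2, values of 0 are not drawn, and Uqcr10 stands above all other genes.

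After Uqcr10, the order in EGFP was Atp5i, subunit e of the ATP synthase (1240 ± 79.4 FPKM), Cox6c (1137 ± 7.0), Atp5b, the catalytic beta subunit (1102 ± 9.8), Cox6a1 (1026 ± 39.4), Cox8a (999.9 ± 23.0), Atp5l (990.6 ± 5.4) and Cox7c (976 ± 21.4), each as SD with n = 2. From Cox6a1 to Cox7c, the EGFP libraries of each gene overlapped with those of the next, so these neighbours did not differ beyond their spread. Cox6c, Cox6a1, Cox8a and Cox7c are small nuclear-encoded subunits of complex IV.

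Complex I genes had the lowest median of the complexes, 121 FPKM in EGFP over all 40. In EGFP, the 7 core genes had a median of 104 FPKM and ranged from 82.1 to 247, led by Ndufv2, which carries an iron-sulfur cluster next to the NADH site. The accessory genes had a median of 168 FPKM, with Ndufa1 highest at 671 ± 48.8 FPKM (SD, n = 2) and Ndufb8 next. The 6 assembly factors, which build complex I and then leave it, lay between 3.98 and 30.0 FPKM, so no assembly factor reached the level of any core subunit.

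Complex III genes other than Uqcr10 ranged down to Uqcrq at 64.2 FPKM, and the median of the 9 was 163 FPKM. In complex IV the median was 445 FPKM over all 18 genes, including those near 0. Of the ATP synthase, the 5 genes of the F1 head had a median of 343 FPKM and the 10 genes of the membrane part and stalk 390.1 FPKM. Atp5e, the epsilon subunit of the F1 head, was an exception at 8.98 and 7.25 FPKM in EGFP, far below Atp5a1, its alpha subunit, at 554 and 561. The subunits sit in the complex in fixed numbers, and FPKM values did not follow these numbers.

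For Cox4, Cox6a, Cox8 and Ndufa4, the isoforms compared here, the common form was the higher one in every library. Cox6b1, the counterpart of Cox6b2, would fall under the symbol rule but was not among the genes listed. Cox4i1 lay between 776 and 865 FPKM, while Cox4i2, the form known from lung, was listed at 0 in 4 libraries and at 0.499 and 0.705 FPKM in CCNY-WT. Cox6a1 exceeded Cox6a2, the heart and muscle form, by 80.3 to 129 times. Cox8a was at 984 FPKM or more in every library, while Cox8b stood at 0 in EGFP, CCNY-WT replicate 1 and CCNY-shRNA replicate 2, at 1.43 in CCNY-WT replicate 2 and at 3.25 in CCNY-shRNA replicate 1. Ndufa4 exceeded Ndufa4l2, which is known as a hypoxia-responsive paralog, by 228 to 569 times.

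The low values rest on very few fragments. After scaling by relative depth, those of Cox4i2, Cox6b2, Cox8b and Cox8c were whole multiples of the gene's smallest value, within 0.0183 of a whole number. Cox4i2 came to 1 such step in each CCNY-WT library, Cox8c to 1 step in EGFP replicate 2 and in both CCNY-WT libraries, and Cox8b to 1 step in CCNY-WT replicate 2 and 2 steps in CCNY-shRNA replicate 1. Cox6b2 had 1 step in each library except CCNY-shRNA replicate 2, where it had 4. No steps are given for Ndufa4l2, since its values lay up to 0.499 from a whole multiple. Such values were not read as differences between conditions.

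Subunit c, which forms the rotating ring of the ATP synthase, is made from 3 genes with the same mature protein. Atp5g2 gave 42.6% to 45.2% of their summed FPKM, Atp5g1 33.0% to 35.8% and Atp5g3 20.4% to 21.9%. The order of the genes was the same in all 6 libraries.

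Ndufa11 and the pseudogene Cox6c-ps1 were listed at 0 in all libraries. For Ndufa11, an accessory subunit of complex I, this says only how it is listed, since other subunits of the same complex were abundant. Ndufa10 and Ndufa10l1 are near copies, and their ratio of 3.53 to 5.75 in favour of Ndufa10l1 is uncertain because reads may be split between them. The same holds for Cox6c and its pseudogene.

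The first comparison asked whether lowering CCNY altered these transcripts. CCNY-shRNA and EGFP were compared on log2 FPKM, floored to 1, with limma over the 10188 genes that reached 1 FPKM in 2 libraries or more. Of the 84 members, 79 passed this filter, and Cox4i2, Cox6b2, Cox6c-ps1, Cox8c and Ndufa11 did not. No member passed an adjusted p of 0.05 (Benjamini-Hochberg over all genes tested), where 0.167% of all genes passed as higher and 0.579% as lower. At an unadjusted p under 0.05, 14 members were higher and 1 was lower, against 9.2% and 9.36% of all genes. In bulk RNA fewer cells of a type and less RNA per cell cannot be told apart.

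Most members had a small positive log2 change. It was above 0 in 68 of 79 and below 0 in 11, against 50% and 49.8% of all genes, with a median of 0.10 against 0.00 over all genes. Under quantile normalization of the libraries the median of the members was 0.0554, and under upper quartile scaling it was 0.1044. By complex the median log2 change was 0.11 for complex I, 0.08 for complex III, 0.10 for complex IV and 0.08 for the ATP synthase. Both CCNY-shRNA libraries lay above both EGFP libraries for 28 members and below both for 2, against 23.9% and 24.5% of all genes. The 2 that lay below were Ndufs4 and Ndufs1.

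The positive shift stood mainly in 1 library. Relative to the mean of the EGFP libraries, the median log2 value of the 79 genes was 0.01 in CCNY-shRNA replicate 1 and 0.19 in replicate 2. In replicate 2, 69 members were above both EGFP libraries (87.3%, against 38.7% of all genes), while in replicate 1 there were 31 (39.2%, against 37.6%). Without replicate 2 the median change was 0.0074, and without replicate 1 it was 0.193. With replicate 1 left out, 3 members passed the adjusted threshold as higher, Ndufs5, Uqcrb and Atp5e, on 1 knockdown library. In that fit 86 of 10136 genes passed in all, 0.395% as higher and 0.454% as lower. Replicate 2 exceeded replicate 1 in 69 of the 79 genes, by a median of 0.19 on the log2 scale.

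Genes of ribosomal proteins, looked at after the values of the members were seen, moved with the same library. The 85 genes of cytosolic ribosomal proteins had medians of -0.03 in CCNY-shRNA replicate 1 and 0.23 in replicate 2, and the 67 of mitochondrial ribosomal proteins had 0.08 and 0.19. Other genes above 100 FPKM in EGFP, 1071 in number, had medians of -0.01 and 0.04. The part of a difference between libraries in the shift of the members was not tested.

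**Figure D2:**
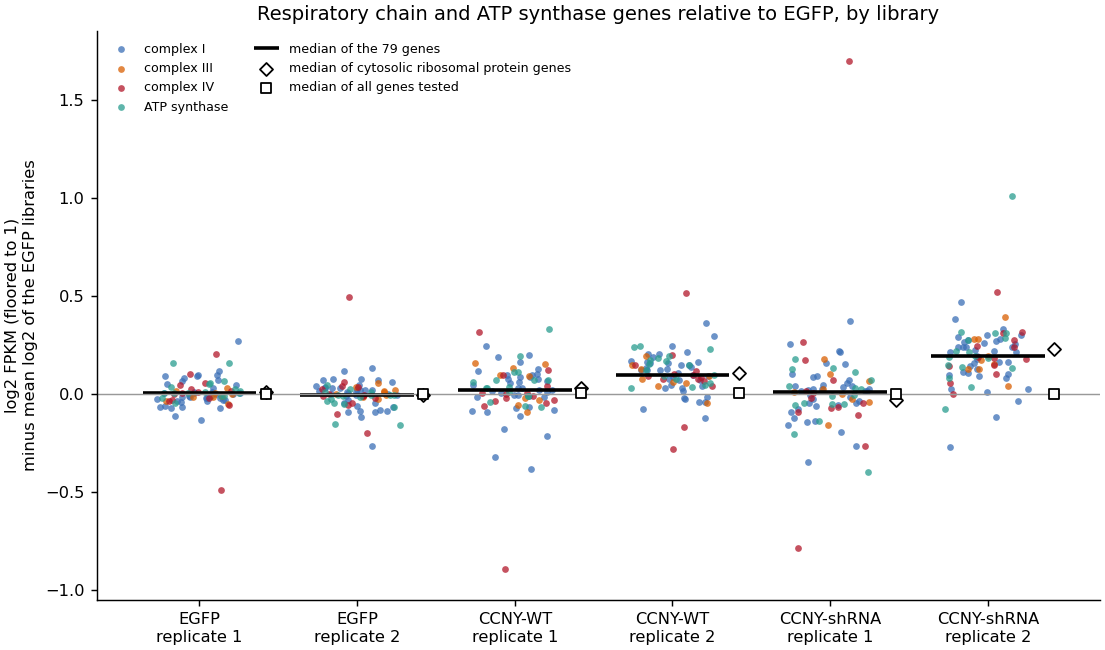
Log2 FPKM of the 79 tested genes in each library, minus the mean log2 value of the 2 EGFP libraries. Points are genes coloured by complex, bars are their medians, diamonds the median of the cytosolic ribosomal protein genes and squares that of all genes tested, and the bar stands at 0.19 in CCNY-shRNA replicate 2 and at 0.01 in replicate 1.

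Summed FPKM also differed mainly in replicate 2. Complex I genes summed to 5794 and 5814 FPKM in EGFP and to 5824 and 6668 in CCNY-shRNA. Complex IV genes summed to 7868 and 7887 FPKM in EGFP and to 7849 and 9109 in CCNY-shRNA. For the ATP synthase the sums were 7738 and 7542 FPKM in EGFP, and 7697 and 8689 in CCNY-shRNA. In each of these complexes, CCNY-shRNA replicate 1 lay much closer to the EGFP libraries than replicate 2 did.

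Within complex I, the shift was larger among accessory than among core genes as a description, and only in CCNY-shRNA replicate 2. Relative to the EGFP mean, core and accessory medians were 0.0149 and 0.0146 in replicate 1, and 0.140 and 0.230 in replicate 2. The 26 accessory genes tested had a median log2 change of 0.13 in CCNY-shRNA, 22 of them above 0, in a range from -0.31 to 0.30. The 7 core genes had a median of 0.06, with 5 above 0, and the 6 assembly factors a median of 0.06, also with 5 above 0. No test of the difference between these roles was made.

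In complex I, both CCNY-shRNA libraries lay above both EGFP libraries for 15 of 39 genes tested and below both for 2. Over all genes tested these shares were 23.9% and 24.5%. Some of the complex I genes follow. Ndufs5, an accessory subunit on the intermembrane side of complex I, was at 210 and 213 FPKM (EGFP), 232 and 244 (CCNY-WT) and 247 and 276 (CCNY-shRNA). Both CCNY-shRNA libraries were above the 4 others. The log2 difference from EGFP was 0.30 ± 0.0663 (SE), 1.23-fold, with a limma adjusted p of 0.0829.

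Ndufs4, an accessory subunit of the NADH-binding arm whose loss in humans and mice causes Leigh-type disease, was lower in the knockdown libraries. It was at 114 and 99.5 FPKM (EGFP), 106 and 111 (CCNY-WT) and 83.5 and 88.1 (CCNY-shRNA). Both knockdown libraries were the lowest of the 6. The log2 difference from EGFP was -0.31 ± 0.0734, 0.807-fold, with a limma adjusted p of 0.0922.

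Ndufs6, a zinc-binding accessory subunit of the same arm, was at 85.3 and 92.9 FPKM (EGFP), 68.3 and 81.7 (CCNY-WT) and 115 and 105 (CCNY-shRNA). The 3 conditions did not overlap, with CCNY-WT lowest and CCNY-shRNA highest. Against EGFP the log2 difference was 0.30 ± 0.0940 in CCNY-shRNA (limma adjusted p = 0.152).

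Ndufs1, the largest iron-sulfur subunit of the core, was at 125 and 125 FPKM (EGFP), 128 and 122 (CCNY-WT) and 117 and 115 (CCNY-shRNA). The knockdown libraries were the lowest, but the log2 difference from EGFP was only -0.11 (limma adjusted p = 0.317). Ndufv1, which binds NADH and the flavin, was 0.14 higher (0.195), and Ndufv2 was 0.21 higher (0.210). Core genes thus stood on both sides of EGFP, at changes under 0.25 in size.

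**Figure D3:**
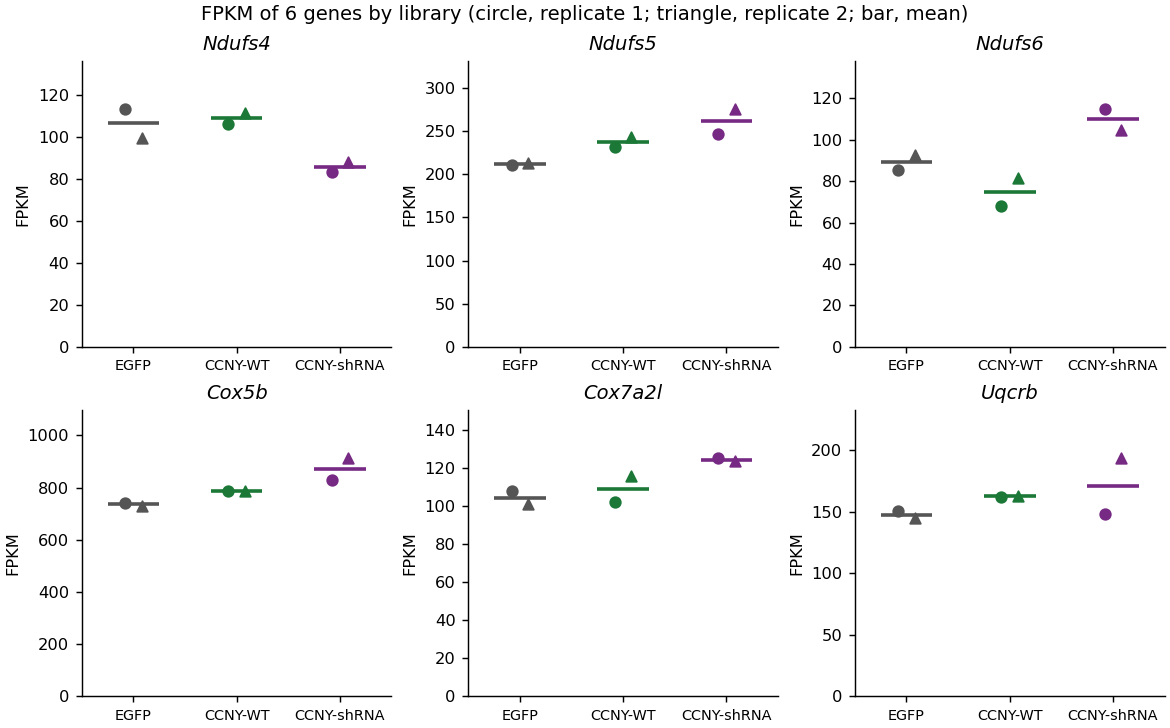
FPKM of Ndufs4, Ndufs5, Ndufs6, Cox5b, Cox7a2l and Uqcrb in each library, on axes that start at 0. Circles are replicate 1, triangles replicate 2 and bars the mean of each condition, and the CCNY-shRNA points of Ndufs4 are the lowest and those of Ndufs6 the highest of their panels.

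Some genes of complexes III and IV stood at similar log2 differences, above the medians of 0.08 and 0.10 for these complexes. Others lay near EGFP, such as Uqcrc2 at 0.0054, Uqcr11 at -0.0038 and Cox4i1 at 0.04. Uqcrfs1, the Rieske iron-sulfur protein of complex III, was 0.17 higher on the log2 scale (limma adjusted p = 0.157) and Cyc1, cytochrome c1, 0.19 higher (0.206). Cox5b, a nuclear-encoded subunit of complex IV, was at 740 and 730 FPKM (EGFP), 785 and 788 (CCNY-WT) and 828 and 914 (CCNY-shRNA), a log2 difference of 0.24 ± 0.0688 from EGFP (limma adjusted p = 0.130). Cox5b did not overlap between any 2 conditions. Other complex IV genes under the same naming rule lay lower, with Cox5a at 0.04, Cox7a2 at 0.02 and Cox7b at 0.11 against EGFP.

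Cox7a2l, known for its part in joining complexes III and IV into supercomplexes, was at 108 and 101 FPKM (EGFP), 102 and 116 (CCNY-WT) and 125 and 123 (CCNY-shRNA). The CCNY-shRNA libraries were the 2 highest, 0.25 ± 0.0706 above EGFP on the log2 scale (limma adjusted p = 0.126). Uqcrb was at 151 and 145 FPKM in EGFP and at 148 and 194 in CCNY-shRNA, so its log2 difference of 0.20 stood in replicate 2 alone.

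In the ATP synthase, 16 of 17 genes were above EGFP in CCNY-shRNA, all 10 of the membrane part and stalk among them, where 50% of all genes were. This rested on CCNY-shRNA replicate 2, in which 16 of the 17 and all 10 were above the EGFP mean, while in replicate 1 it was 8 of the 17 and 4 of the 10. The median of the 17 without replicate 2 was -0.0040. Atp5d, the delta subunit of the F1 head, was 0.22 higher (limma adjusted p = 0.181), Atp5h, subunit d of the stalk, 0.21 higher (0.204) and Atp5j, the coupling factor, 0.17 higher (0.189). The exception was Atp5a1, where the log2 difference was -0.01, with a 95% interval from -0.15 to 0.13. Atp5e was at 6.12 and 16.3 FPKM in CCNY-shRNA, values on either side of EGFP, and its log2 difference of 0.31 had a limma adjusted p of 0.723.

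The study set a fold threshold of 0.33 on the log2 scale for the knockdown. Applied here to the difference of mean log2 floored FPKM, with no test and without the cuffdiff step of the study, Cox6b2 and Cox8b counted as higher in CCNY-shRNA and no member as lower, against 3.34% and 4.58% of all rows. Both genes are the low ones described above, with values of at most 4 steps. Of the 58 members above 100 FPKM in every library, 0 reached this threshold in CCNY-shRNA. Changes of the 1071 other genes above 100 FPKM in EGFP ran from -0.68 to 0.48. Their share past the threshold is not given here, so the count of members is a description.

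The second comparison asked the same of raised CCNY, and it shares its EGFP libraries with the first. No member passed an adjusted p of 0.05 in CCNY-WT, where 0.00982% of all genes passed as higher and 0% as lower. At an unadjusted p under 0.05, 3 members were higher and 1 was lower, against 3.83% and 3% of all genes, which is near the background. The log2 change was above 0 in 63 of 79 members and below 0 in 16, against 51.3% and 48.6% of all genes. The median was 0.05 against 0.00 over all genes. For the members it was 0.0326 under quantile normalization and 0.0528 under upper quartile scaling. By complex the medians were 0.05 for complex I, 0.08 for complex III, 0.04 for complex IV and 0.08 for the ATP synthase.

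Here too the shift was larger in replicate 2. The median log2 value relative to EGFP was 0.02 in CCNY-WT replicate 1 and 0.09 in replicate 2, with 37 members (46.8%) and 59 members (74.7%) above both EGFP libraries, against 33.7% and 37.2% of all genes. Both CCNY-WT libraries lay above both EGFP libraries for 30 members and below both for 2, Ndufs6 and Uqcrc2, against 20.3% and 19.2% of all genes. Cytosolic ribosomal protein genes had medians of 0.03 and 0.10 in the same libraries.

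Complex III genes summed to 5778 and 5816 FPKM in EGFP, and to 6305 and 6265 in the overexpression libraries. Uqcr10 made up most of this, at 4228 and 4236 FPKM in EGFP, 4706 and 4621 in CCNY-WT, then 4310 and 4621 in CCNY-shRNA. Both CCNY-WT libraries and both CCNY-shRNA libraries of Uqcr10 were above EGFP. Without Uqcr10, the other 8 genes of complex III summed to 1550 and 1580 FPKM in EGFP and 1599 and 1645 in CCNY-WT.

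All 17 genes counted with the ATP synthase by symbol, Atp5sl among them, had a positive change in CCNY-WT, where 51.3% of all genes did. Their median log2 value over the EGFP mean was 0.03 in CCNY-WT replicate 1, with 12 of the 17 above that mean, and 0.15 in replicate 2, with all 17 above it. Atp5h was at 643 and 630 FPKM (EGFP), 727 and 751 (CCNY-WT) and 687 and 788 (CCNY-shRNA), and both CCNY-WT libraries were above EGFP. The log2 difference was 0.22 ± 0.0770 (limma adjusted p = 0.725). Atp5sl, now named Dmac2 and known as a complex I assembly factor despite its older symbol, had 0.28 (0.801), at 8.67 and 9.23 FPKM in EGFP and 11.3 and 10.5 in CCNY-WT.

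In complex I, the log2 difference between CCNY-WT and EGFP was -0.25 ± 0.0940 for Ndufs6 and 0.17 ± 0.0663 for Ndufs5, both with a limma adjusted p of 0.725. Ndufb7, an accessory subunit of the membrane arm, was at 118 and 106 FPKM (EGFP), 133 and 137 (CCNY-WT) and 108 and 141 (CCNY-shRNA). Its log2 difference in CCNY-WT was 0.27 ± 0.116 (limma adjusted p = 0.729). Ndufs4 in CCNY-WT lay between its EGFP values.

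With the threshold of 0.3 for CCNY-WT, applied in the same way, no member counted as higher and only Ndufa4l2 as lower, against 2.8% and 2.31% of all rows. Ndufa4l2 was at 1.34 and 2.65 FPKM (EGFP), 1.01 and 1.67 (CCNY-WT) and 1.09 and 2.70 (CCNY-shRNA). These overlap between all conditions, and its log2 difference of -0.53 had a limma adjusted p of 0.875.

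**Figure D4:**
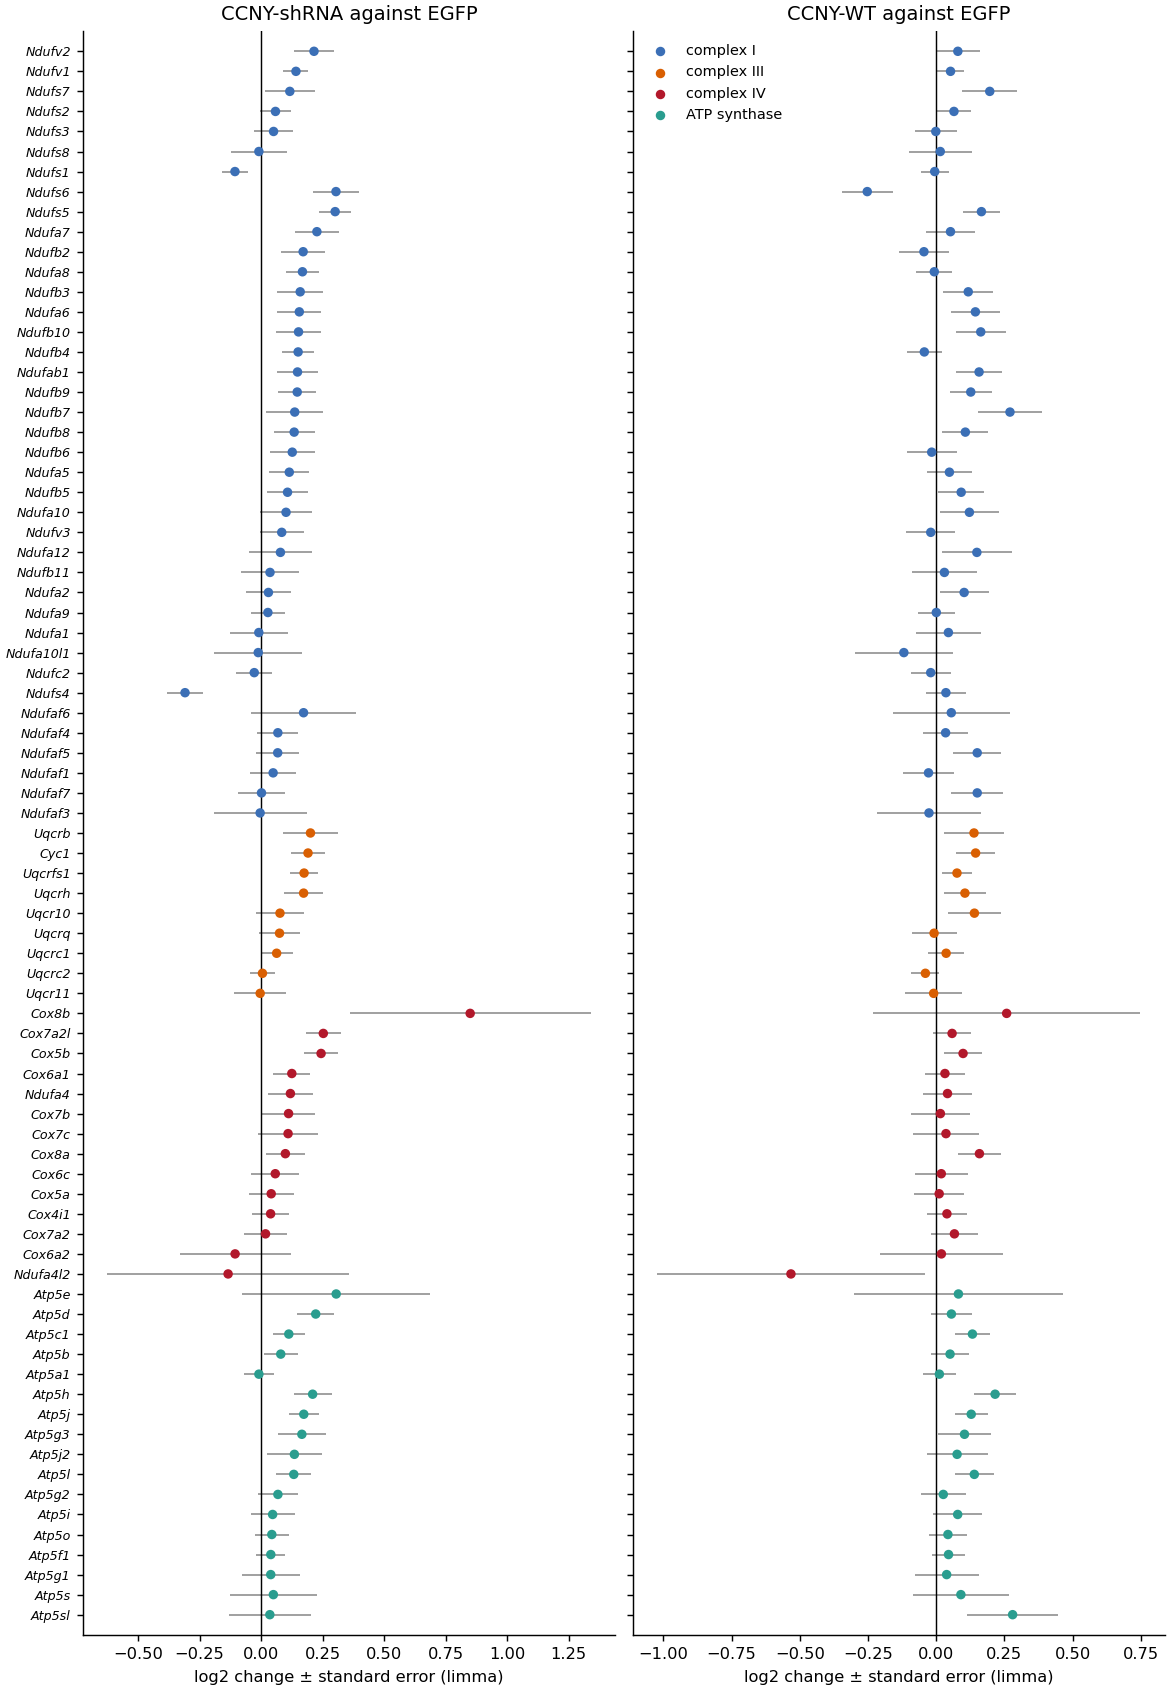
Log2 change of the 79 tested genes in CCNY-shRNA (left) and CCNY-WT (right) against the same EGFP libraries, with standard errors from limma and colours by complex. Most points lie to the right of 0 in both panels, Ndufs4 lies left of 0 in CCNY-shRNA at -0.31, and Ndufs6 lies on opposite sides of 0 in the panels.

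The third comparison set knockdown directly against overexpression. No member passed an adjusted p of 0.05, against 0.0196% of all genes that passed as higher and 0.196% as lower. At an unadjusted p under 0.05, 5 members were higher in CCNY-shRNA and 1 was lower, against 5.05% and 7.12% of all genes. The log2 change was above 0 in 51 of 79 members and below 0 in 28, against 50.4% and 49.5% of all genes, with a median of 0.03. Both CCNY-shRNA libraries lay above both CCNY-WT libraries for 14 members and below both for 3, against 20.3% and 21.9% of all genes. The median was -0.0724 without CCNY-shRNA replicate 2 and -0.0112 without CCNY-WT replicate 1, so its sign rested on single libraries.

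Ndufs6 and Ndufs4 gave the smallest p-values. The log2 differences of 0.59 for Cox8b and 0.40 for Ndufa4l2 were larger than that of Ndufs4, on values of at most 3.25 FPKM. Ndufs6 was 0.56 ± 0.0940 higher in CCNY-shRNA than in CCNY-WT on the log2 scale, with a 95% interval from 0.34 to 0.77 and a limma adjusted p of 0.0878. Ndufs4 was -0.34 ± 0.0734 on the same scale (limma adjusted p = 0.149). The ratio of Ndufs6 to Ndufs4 FPKM was 0.751 and 0.933 (EGFP), 0.641 and 0.733 (CCNY-WT) and 1.38 and 1.19 (CCNY-shRNA). This ratio, chosen after the values were seen, was above 1 in the knockdown libraries and below 1 in the 4 others.

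Ndufb4, Ndufa8 and Ndufb2, all accessory subunits of complex I, and Cox7a2l made up the rest of the higher ones, at log2 differences of 0.19, 0.17, 0.22 and 0.19, with limma adjusted p-values of 0.314, 0.353, 0.398 and 0.342. Genes of the ATP synthase were split evenly, 9 above 0 and 8 below, with a median of 0.00. The 10 genes of its membrane part and stalk lay between -0.03 and 0.06.

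Other genes of oxidative phosphorylation, from a list that leaves out the members, were read in the same fit. The list also held genes of mitochondrial DNA, of which 0 were in the table. Of 68 listed, 46 were in the table and 45 were tested: the electron carrier, the ATP synthase inhibitor, assembly factors and transcription factors of these genes. None passed an adjusted p of 0.05 in any comparison. At an unadjusted p under 0.05, 5 were higher and 3 lower in CCNY-shRNA, against 9.2% and 9.36% of all genes, and 2 were higher and 0 lower in CCNY-WT, against 3.83% and 3%. In CCNY-shRNA against CCNY-WT, 4 were higher and 1 was lower, against 5.05% and 7.12%. With 45 genes, these counts are near the background. Their median log2 change was 0.02 in CCNY-shRNA and 0.05 in CCNY-WT.

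The smallest adjusted p among them belonged to Cox17, the chaperone that carries copper for complex IV. It was at 142 and 118 FPKM (EGFP), 144 and 161 (CCNY-WT) and 179 and 182 (CCNY-shRNA), a log2 difference of 0.48 in the knockdown (limma adjusted p = 0.0634). Atpif1, the inhibitor of ATP hydrolysis by the ATP synthase, was at 576 and 581 FPKM (EGFP), 609 and 615 (CCNY-WT) and 658 and 707 (CCNY-shRNA) (0.24, limma adjusted p = 0.112). Neither gene overlapped between EGFP and CCNY-shRNA.

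An unadjusted p under 0.05 was also reached in the knockdown by Coa4, Usmg5 and Tmem70, with higher values, and by Cox20, Cox11 and Pet100, with lower ones. Cox20, an assembly factor of complex IV, was at 22.3 and 31.2 FPKM (EGFP), 27 and 29 (CCNY-WT) and 14.7 and 19.96 (CCNY-shRNA), with both knockdown libraries below the others. Its log2 difference was -0.62 against EGFP and -0.71 against CCNY-WT, with limma adjusted p-values of 0.142 and 0.220. Cox11 and Pet100, also assembly factors of complex IV, had -0.32 (limma adjusted p = 0.200) and -0.16 (0.219) against EGFP. Tmem70, an assembly factor of the ATP synthase, had 0.25 (limma adjusted p = 0.0860), Usmg5, a small protein of the ATP synthase, 0.30 (0.187), and Coa4 0.54 (0.124). The 12 transcription genes, among them Nrf1, Gabpa, Yy1 and Tfam, had a median of 0.04 in CCNY-shRNA and -0.00 in CCNY-WT.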

How the data were processed

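RNA was measured in 6 libraries of 3 conditions, 2 for each. The authors aligned 150-bp reads to rn4 with TopHat 2 and computed FPKM with Cufflinks; the deposited table holds 1 FPKM per gene and library and no counts. The submitters' processing notes name SAMtools 0.1.19, Bowtie2 2.1.0, TopHat2 2.0, Cufflinks 2.2.1 and R 3.1.0. The library kit is named as stranded in the labels and without that word in the methods, and the strand setting of the counting is not given in the sources used here.

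Values were floored to 1 and log2-transformed, and limma 3.58.1 (R 4.3.3; lmFit, contrasts.fit, eBayes with a trend) was fitted to the 6 libraries together, on the 10188 genes that reached 1 FPKM in 2 libraries or more, with Benjamini-Hochberg adjustment and a threshold of 0.05. The fit was tested on simulated data. Python 3.11.15, pandas 2.3.3, numpy 2.4.6 and matplotlib 3.10.9 were used. RefSeq holds 67 of the 84 symbols as current names and 17 as older ones. RefSeq promoters (GRCr8) were used for sequences and their own positions only.

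Genes were named by rule: per role the 2 highest in EGFP and the largest positive and negative change in each condition, isoform families, members past the fold thresholds, and those listed at 0 in some libraries. Others, chosen after their values were seen, are Ndufs5, Ndufv1, Ndufa8, Ndufa10, Ndufa10l1, Ndufa11, Ndufb2, Ndufb4, Cox6c-ps1, Cox7c, Uqcrfs1, Uqcrq, Atp5d and Atp5j, the genes named from the wider list (Cox17, Atpif1, Coa4, Usmg5, Tmem70, Cox20, Cox11, Pet100, Nrf1, Gabpa, Yy1 and Tfam), and the ribosomal protein lists. The members and lists were chosen with earlier results of these data known. Levels by protein length were not run. Alternatives covered the offset, filter, scaling, spread estimate, threshold, replicate block and each left-out library.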

Additional observations from a re-analysis of the deposited data

How the results depend on the processing

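No member passed the threshold under any other offset, filter, scaling or spread estimate, and leaving out a library gave 0 to 3 members called in CCNY-shRNA against EGFP, with 1 to 86 genes called in all. The 3 came without CCNY-shRNA replicate 1, where 86 of 10136 genes were called, as higher: Uqcrb 0.39 (limma adjusted p = 0.0408), Ndufs5 0.38 (0.0459) and Atp5e 1.01 (0.0498), where the lone knockdown library is assumed to vary like the other groups. In the other comparisons 0 members were called under every setting. With each library left out, the median of the members ranged from 0.0074 to 0.193 in CCNY-shRNA, 0.0242 to 0.0947 in CCNY-WT and -0.0724 to 0.131 in CCNY-shRNA against CCNY-WT. Quantile normalization gave 0.0554, 0.0326 and 0.0185, and upper quartile scaling 0.1044, 0.0528 and 0.0318. In CCNY-shRNA against EGFP, 1 of 10188 genes was called with no trend in the spread estimate, and 2 of 13483 with no filter. Almost no gene was called under these settings, so the lack of members there says little. The other offsets, filter and scalings called 82 to 108 genes. In CCNY-shRNA against EGFP, the number of members higher at an unadjusted p under 0.05 depended on the library left out. Shares over all genes in those fits are not given here, so that number was not read. With a library left out, members past the fold thresholds numbered 2 to 6 in CCNY-shRNA and 1 to 5 in CCNY-WT. In CCNY-WT they numbered 3 with log2(FPKM + 1), 4 with log2(FPKM + 0.1) and 2 with quantile normalization. The shares of all rows past the thresholds under these settings are not given here, so these counts were not read. 

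With a replicate block, 0 members were called and the medians were 0.10, 0.05 and 0.03; genes called in CCNY-shRNA among all tested went from 76 to 39. Deviations of same-numbered libraries correlated at 0.0377 to 0.0538, so the numbers were not taken as pairs.

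Left-out libraries turned the sign of these values. In CCNY-shRNA against EGFP, medians ranged from -0.0040 to 0.195 for the ATP synthase and -0.0357 to 0.186 for complex IV, and single genes from -0.0549 to 0.0368 for Atp5a1, -0.399 to 1.01 for Atp5e, -0.110 to 0.209 for Atp5s, -0.789 to 0.520 for Ndufa4l2, -0.267 to 0.259 for Ndufaf3, -0.125 to 0.470 for Ndufaf6 and -0.161 to 0.153 for Uqcr11. In CCNY-WT they ranged from -0.0138 to 0.0889 for complex IV, -0.0741 to 0.0178 for Ndufaf1 and -0.0398 to 0.0289 for Ndufs1. In CCNY-shRNA against CCNY-WT they ranged from -0.0801 to 0.0867 for the ATP synthase, -0.0760 to 0.130 for complex I, -0.0397 to 0.136 for complex III and -0.0707 to 0.167 for complex IV. The cause was not tested. Depth is unknown, so counting error cannot be given for any FPKM.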

Other observations

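The assembly factors of complex I showed no common direction. Of the 6 with Nduf names, 5 had a positive log2 change in CCNY-shRNA, with a median of 0.06. Of the 7 listed with other names 2 did, with a median of -0.02, and Atp5sl was not among the 7. None of these passed the adjusted threshold in limma. Ndufaf3 was at 18.8 and 22.1 FPKM (EGFP), 17.6 and 22.8 (CCNY-WT) and 16.9 and 24.4 (CCNY-shRNA), so in each condition the libraries spread further apart than the condition means did. Ndufaf7 was at 17.5 and 15.9 FPKM (EGFP), 19.1 and 17.9 (CCNY-WT) and 17.1 and 16.2 (CCNY-shRNA).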
